A study of Mus musculus with 6 samples.

Results

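KRAB zinc finger cluster regions are open chromatin regions of mouse embryonic stem cells that lie in 4 windows of the genome taken as clusters of KRAB zinc finger genes. Peaks of 6 ATAC-seq libraries that overlapped by 1 bp or more were merged into 259376 regions, and 1847 of them overlapped the windows. The windows (GRCm39) were chr2:174500001-178000000 with 201 regions, chr4:143000001-148000000 with 567, chr12:17500001-25000000 with 760 and chr13:65000001-68000000 with 319. The remaining 56577 regions of chromosomes 2, 4, 12 and 13 served for comparison. The members were chosen by the called peaks of these same libraries within fixed windows, and the windows were set with earlier results on their calls and heights known. Calls and heights inside the windows are therefore given as a description, with no test.

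KRAB zinc finger proteins are transcription factors that bind DNA through arrays of C2H2 zinc fingers. Their KRAB domain recruits the co-repressor TRIM28 (KAP1), which brings in the histone methyltransferase SETDB1 and leads to heterochromatin marked by trimethylated histone H3 lysine 9. In embryonic stem cells this system is known for silencing endogenous retroviruses. The genes arose by repeated duplication and lie in tandem clusters, so neighbouring copies resemble each other in sequence. How the authors treated reads that match several copies is not given in the sources used here, and a tag may therefore belong to a similar copy.

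ATAC-seq marks open DNA with a transposase that inserts sequencing adapters. The cells were of the line E14TG2a in 3 genotypes with 2 libraries each: Alkbh5 del-cIDR (an allele of Alkbh5 lacking a part called cIDR, an intrinsically disordered region going by the series title), Alkbh5 KO (knockout) and WT. ALKBH5 is an enzyme that removes N6-methyladenosine from RNA. All 6 libraries share their culture, which held the MEK inhibitor PD0325901 at 1 µM, the GSK3 inhibitor CHIR99021 at 3 µM, LIF at 1000 U/ml and serum at 15%, and each received 10 µl of spike-in nuclei. Whether a mutant genotype is 1 clone, and whether the 2 libraries of a genotype are separate cultures, is not given in the sources used here. The spread within a genotype may thus be technical, and a difference between genotypes cannot be told apart from one between lines.

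The libraries held 150680 to 193905 mouse peaks, with both WT lists the longest. Depth relative to WT replicate 1, estimated from the background of each list, was 0.975 and 0.959 in del-cIDR, 1.10 and 0.820 in KO, and 1.10 in WT replicate 2. The height of a region in a library is the number of tags at its tallest summit, solved from the deposited fold and p. A region that a list lacks can still be open, at a height that did not reach significance. Since the lists differ in length and depth, shares and heights inside the windows are set beside the same values on the rest of the 4 chromosomes. Counts of calling patterns and of regions that differed in height are set beside their shares of all regions, genome-wide. The stem cell identity of the libraries was not checked against marker genes here, because the gene table at hand is on the older build GRCm38. For the same reason no region was assigned to a gene.

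The gene table could be used for the order of genes only. On chromosome 13 it holds a run of 25 neighbouring genes with zinc finger symbols, from Zfp712 to Zfp273, with at most 2 other coding genes between neighbours. This run includes Rsl1, known as a regulator of sex-limited gene expression in mouse liver, and Zfp708. On chromosome 4 the longest run has 17 such genes, from Zfp990 to Zfp933, and includes Zfp600 and Rex2. On chromosome 2 it has 4 among 8 neighbours, from Zfp970 to Zfp931. On chromosome 12 no 2 genes with such symbols stand this close, and the chromosome has 6 in all. Whether these runs lie inside the windows was not determined, since coordinates of the builds were not mixed. The name of a KRAB zinc finger cluster thus rests on the rule, and gene symbols showed no such run on chromosome 12.

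The windows differed in how densely they were covered. The chromosome 2 window held 57.4 regions per Mb, against 107 on the rest of chromosome 2. It contained a stretch of 1382 kb, chr2:175018014-176399747, without a region in any library. The chromosome 4, 12 and 13 windows held 113, 101 and 106 regions per Mb, against 105, 95.8 and 103 on the rest of their chromosomes. Regions in the windows had a median width of 292 bp, and those on the rest of the 4 chromosomes 315 bp. Of the window regions, 760 were called in all 6 libraries: 97 on chromosome 2 (48.3%), 244 on chromosome 4 (43.0%), 257 on chromosome 12 (33.8%) and 162 on chromosome 13 (50.8%).

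KO libraries had the smallest share of the window regions. In the del-cIDR libraries 65.7% and 64.8% of the 1847 regions were called, in the KO libraries 55.8% and 53.6%, and in the WT libraries 76.4% and 74.0%. The 3 genotypes did not overlap. On the rest of the 4 chromosomes the del-cIDR libraries had 59.3% and 58.3% of the regions, the KO libraries 60.8% and 55.8%, and the WT libraries 73.3% and 69.4%. There the KO and del-cIDR libraries overlapped. The share inside minus the share outside was 6.42 ± 0.134 percentage points in del-cIDR, -3.64 ± 1.98 in KO and 3.85 ± 1.05 in WT (SD, n = 2 libraries each).

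Counted the other way, the windows held 3.49% and 3.51% of the peaks of the 4 chromosomes in del-cIDR, 2.91% and 3.04% in KO, and 3.28% and 3.38% in WT. Both KO libraries lay below both WT libraries, with a mean difference of -0.36 percentage points and SDs of 0.0937 in KO and 0.0654 in WT. Both del-cIDR libraries lay above both WT libraries, with a mean difference of 0.17 points. When all lists were shortened to equal length, the KO difference was -0.50 and the del-cIDR difference 0.03 points.

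**Figure D1:**
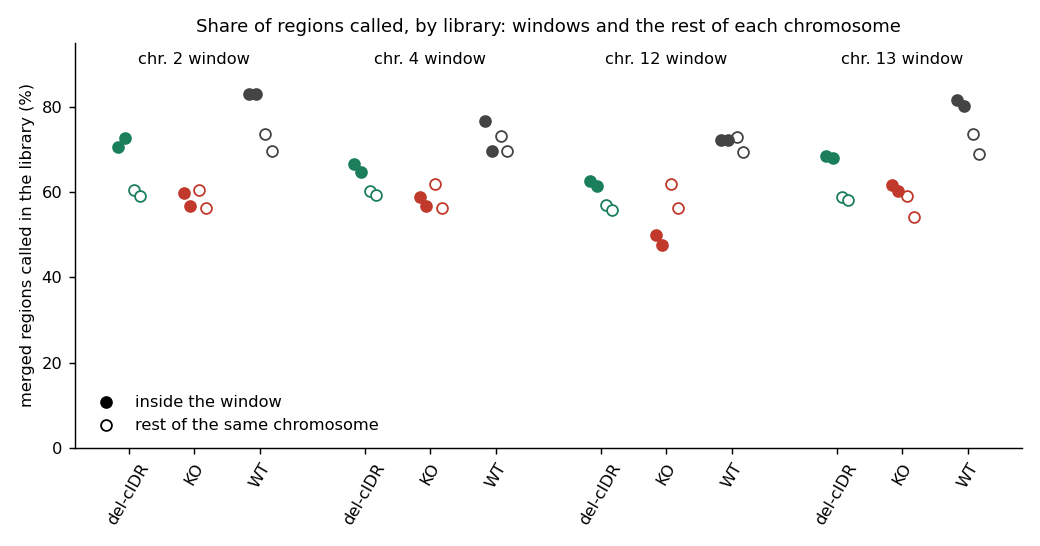
Share of merged regions called in each library (y axis, %), for the 4 windows, with the genotypes side by side. Filled points are regions inside a window and open points the rest of the same chromosome, with 1 point per library. In the chromosome 12 window the KO libraries stand at 49.9% and 47.6%, below the 61.8% and 56.3% of the rest of that chromosome.

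In the chromosome 12 window both KO libraries lay below the rest of their chromosome. There del-cIDR called 62.5% and 61.4% of the 760 regions, KO 49.9% and 47.6%, and WT 72.2% in each library. On the rest of chromosome 12 the shares were 56.9% and 55.7% in del-cIDR, 61.8% and 56.3% in KO, and 73.0% and 69.5% in WT. Inside minus outside this was 5.63 ± 0.0992 points in del-cIDR, -10.3 ± 2.31 in KO and 1.01 ± 2.503 in WT (SD, n = 2 each). The del-cIDR libraries called 56.3% of the rest of chromosome 12 on average, against 58.4% to 59.7% of the rest of chromosomes 2, 4 and 13. In the chromosome 2 window del-cIDR called 70.6% and 72.6%, KO 59.7% and 56.7%, and WT 83.1% in each library. There the same measure was 11.9 ± 2.37 points in del-cIDR, -0.23 ± 0.887 in KO and 11.6 ± 2.79 in WT (SD, n = 2 each), a gap between KO and WT about as wide as on chromosome 12. On chromosome 4 the same measure was 5.96 ± 0.706 points in del-cIDR, -1.15 ± 2.47 in KO and 1.86 ± 2.51 in WT (SD, n = 2 each), and the KO and WT libraries overlapped. On chromosome 13 it was 9.77 ± 0.209 points in del-cIDR, 4.34 ± 2.28 in KO and 9.64 ± 2.33 in WT (SD, n = 2 each). In all 4 windows the KO mean was the lowest of the 3 genotypes.

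The next question was which regions the genotypes lacked. Neither KO library called 198 window regions that both WT libraries called, which is 10.7% of the window regions, beside 7.22% of all 259376 regions. Set against the regions that both WT libraries had, 17.0% were missing in KO inside the windows (198 of 1163), against 12.9% on the rest of the 4 chromosomes. The windows differed in this respect. In the chromosome 12 window 103 of 454 WT regions were missing (22.7%), against 12.4% on the rest of chromosome 12. The shares were 16.7% in the chromosome 2 window (24 of 144) against 12.7% on its rest, 12.9% (45 of 348) against 12.2% for chromosome 4, and 11.98% (26 of 217) against 14.5% for chromosome 13. Without chromosome 12 they were 13.4% in the windows and 12.99% on the rest, although the chromosome 2 window kept its own excess. These shares pool regions of all heights. By height in WT, the other 3 windows gave 53.0% under 12 tags and 10.6% at 20 to under 40 tags. The rest of the 4 chromosomes gave 36.5% and 5.71%. At 12 to under 20 tags the shares were close, 17.2% and 17.8%.

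The KO library of greater depth alone gave the same order. With KO replicate 2 left out, 23.6% of the WT regions were missing in KO inside the windows, against 17.7% on the rest. Without KO replicate 1, the deeper of the 2, the shares were 24.8% and 22.9%.

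In del-cIDR the missing share, over all heights together, was lower inside the windows than on the rest. Neither del-cIDR library called 76 window regions that both WT libraries called (4.11% of the window regions, beside 5.33% of all regions). This was 6.53% of the WT regions in the windows, against 9.45% on the rest of the 4 chromosomes, and the window share was the lower one on each of the 4 chromosomes. In the chromosome 12 window it was 7.27%, against 10.9% on the rest of the chromosome. That rest had the highest such share of the 4 chromosomes, the others lying at 8.83% to 9.58%. Without chromosome 12 from 52 Mb on, the share on the rest of the 4 chromosomes was 9.13%. With lists of equal length the window and rest shares were 4.27% and 5.25%.

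Few regions were seen in a mutant and not in WT. Both KO libraries called 9 window regions that neither WT library had (0.487%, beside 1.89% of all regions), 6 of them on chromosome 4 and 3 on chromosome 12. On the rest of the 4 chromosomes this share was 1.61%. Both del-cIDR libraries called 15 such regions (0.812%, beside 0.931%). Between the mutants, both del-cIDR libraries called 119 window regions that neither KO library had (6.44%, beside 3.59% of all regions), 63 of them on chromosome 12. In the opposite direction there were 17 (0.920%, beside 3.50%). The windows were chosen with such calls in view, so nothing further is read from these shares.

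Across the 3 genotypes, the leading pattern over the 4 windows together was presence in WT and del-cIDR with absence in KO. It held for 89 window regions (4.82%, beside 2.24% of all regions). Of these, 11 lay on chromosome 2, 19 on chromosome 4, 50 on chromosome 12 and 9 on chromosome 13. In the chromosome 13 window it did not lead, as presence in both WT libraries and no mutant library also held for 9. Presence in both WT libraries and no mutant library held for 45 regions (2.44%, beside 2.65%). Presence in WT and KO with absence in del-cIDR held for 6 (0.325%, beside 1.13%), presence in both KO libraries alone for 5 (0.271%, beside 1.19%), presence in both del-cIDR libraries alone for 11 (0.596%, beside 0.453%), and presence in the 4 mutant libraries and neither WT library for 1 (0.0541%, beside 0.194%). The 198 regions that KO lacked split into 44.9% with a call in both del-cIDR libraries, 32.3% with a call in 1 and 22.7% with none. On the rest of the 4 chromosomes, 4256 regions were missing in KO, and 30.1% of them had a call in both del-cIDR libraries and 37.1% in neither.

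**Figure D2:**
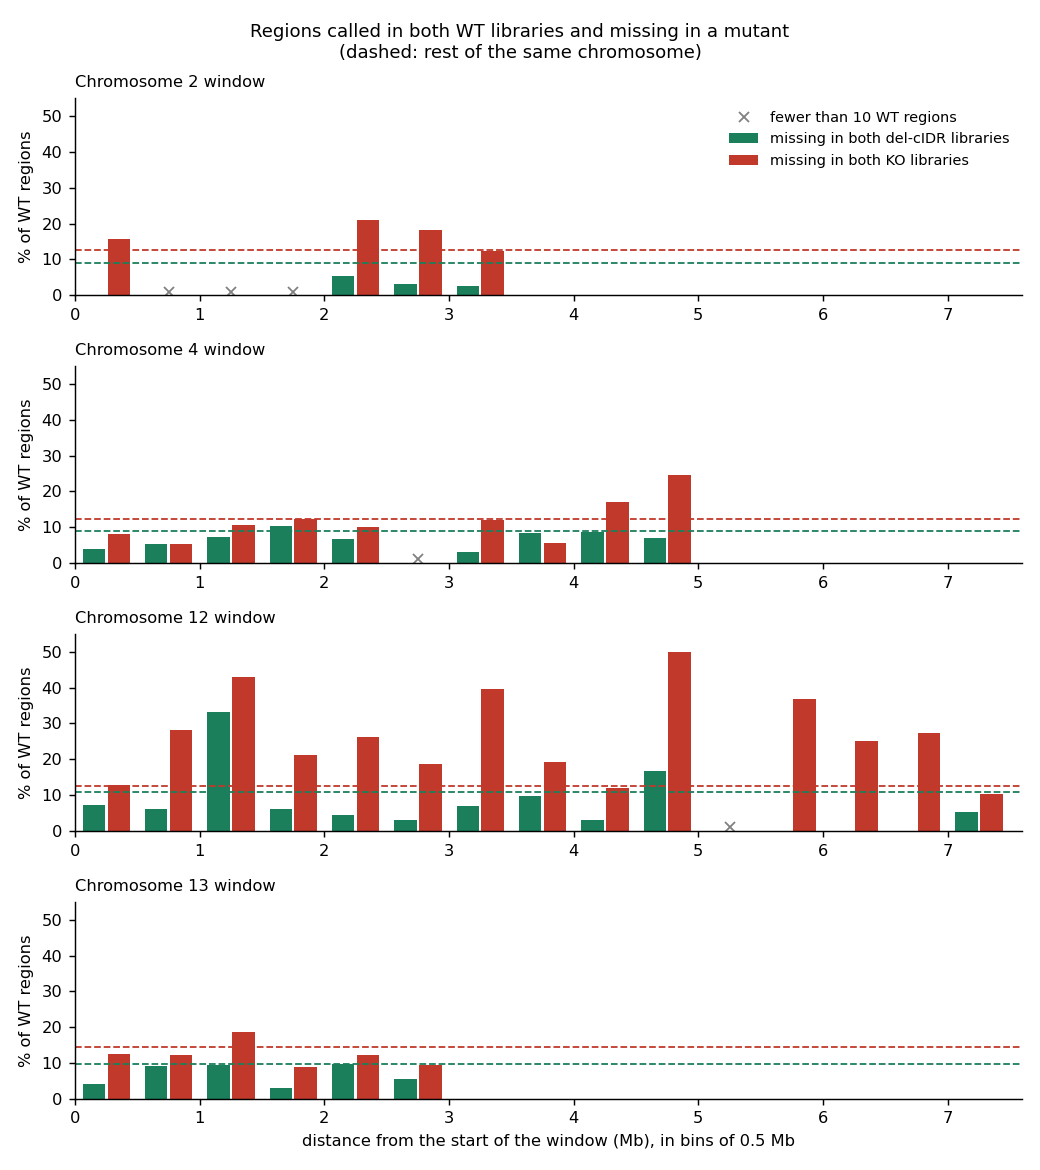
Regions called in both WT libraries that were missing in both del-cIDR libraries or in both KO libraries, as % of the WT regions (y axis), in bins of 0.5 Mb along each window (x axis, distance from the window start). Dashed lines are the rest of the same chromosome, and crosses are bins with fewer than 10 WT regions. In the chromosome 12 window the KO bars stand above the dashed line of 12.4% over most of the length, while the first and last KO bars stand at 12.7% and 10.3%.

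Along the chromosome 12 window the missing regions were spread over most of the length. Between 20.5 and 21 Mb, 17 of 43 WT regions were missing in KO (39.5%), between 18.5 and 19 Mb 9 of 21, between 22 and 22.5 Mb 6 of 12, and between 23 and 23.5 Mb 7 of 19. The outermost bins were lower, with 7 of 55 from 17.5 to 18 Mb and 6 of 58 from 24.5 to 25 Mb. In the chromosome 4 window the largest share was in the last bin, from 147.5 to 148 Mb, with 14 of 57. The limits of the windows did not separate the values. In the 500 kb just inside the 8 edges, 8% to 24.6% of the WT regions were missing in KO, and in the 500 kb just outside 5.26% to 25.9%. The highest outside value was before the start of the chromosome 4 window, with 14 of 54.

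The tallest regions with this pattern were the following. On chromosome 12, chr12:22186389-22186920 had 68 and 49 tags in del-cIDR, no call in KO, and 46 and 67 tags in WT. The region chr12:23345358-23345630 had 47 and 55 tags in del-cIDR, no call in KO, and 53 and 54 tags in WT. On chromosome 4, chr4:146000271-146000490 reached 77 and 83 tags in del-cIDR and 72 and 73 in WT, again with no call in KO. In these 3 regions del-cIDR and WT overlapped or lay close together. The chromosome 13 window had chr13:65496407-65496675 with 35 and 39 tags in del-cIDR, no call in KO, and 46 and 47 tags in WT. The chromosome 2 window had chr2:176952003-176952515 with 31 and 22 tags in del-cIDR, no call in KO, and 20 and 34 tags in WT.

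Regions missing in both mutants were narrower. The tallest was chr13:66711771-66711886, 116 bp wide, with 42 and 45 tags in WT and no call in the 4 mutant libraries. Next came chr13:67675592-67675726 with 26 and 30 tags and chr4:147198601-147198761 with 28 and 26 tags in WT, 135 and 161 bp wide. The 45 regions of this pattern had a median width of 206 bp, against 286 bp for the 89 regions kept in del-cIDR. The rest of the 4 chromosomes showed the same contrast, with 209 and 317 bp. Peaks of 116 bp are close to the least width of the WT lists, 114 and 113 bp. The narrowest peaks of the mutant lists were wider, 123 and 125 bp in del-cIDR and 121 and 130 bp in KO. No mutant list thus held a peak as narrow as 116 bp. The part of this difference in least width in the missing calls was not tested.

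The few regions of the opposite kind were low. The tallest region called in KO alone was chr4:144976445-144976872, with 21 and 18 tags in KO, and the tallest called in del-cIDR alone was chr4:143026635-143027056, with 21 and 15 tags in del-cIDR. The region called in all 4 mutant libraries and in neither WT library was chr12:17788517-17788885, with 8 tags in each del-cIDR library and 11 and 10 in KO. Among regions absent from del-cIDR and called in KO and WT, the tallest was chr4:146097663-146097831, which had 13 and 11 tags in KO, against 17 and 20 in WT.

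Low regions are missed more easily, so the missing share was also read by the height in WT. Among WT regions of under 12 tags, 53.5% of 159 in the windows were missing in KO, against 36.5% on the rest of the 4 chromosomes. At 12 to under 20 tags the shares were 24.2% of 265 and 17.8%. At 20 to under 40 tags they were 12.6% of 348 and 5.71%. At 40 tags or more they were 1.28% of 391 (5 regions) and 0.545%. In each class the share of all windows together was the higher one. In the chromosome 12 window alone the shares were 53.9%, 32.5%, 15.9% and 1.59% from the lowest to the highest class. The other 3 windows gave 53.0%, 17.2%, 10.6% and 1.13%, so that the class of 12 to under 20 tags lay close to the rest of the chromosomes there. For del-cIDR the window shares were 25.2%, 9.06%, 3.16% and 0.256%, against 32.3%, 11.1%, 2.68% and 0.251% on the rest. The window share was thus the lower one only under 20 tags. Many of the taller missing regions were narrow. At 20 tags or more, 29 of the 49 window regions missing in KO were under 250 bp, against 331 of 593 on the rest. For del-cIDR it was 11 of 12, against 190 of 278.

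**Figure D3:**
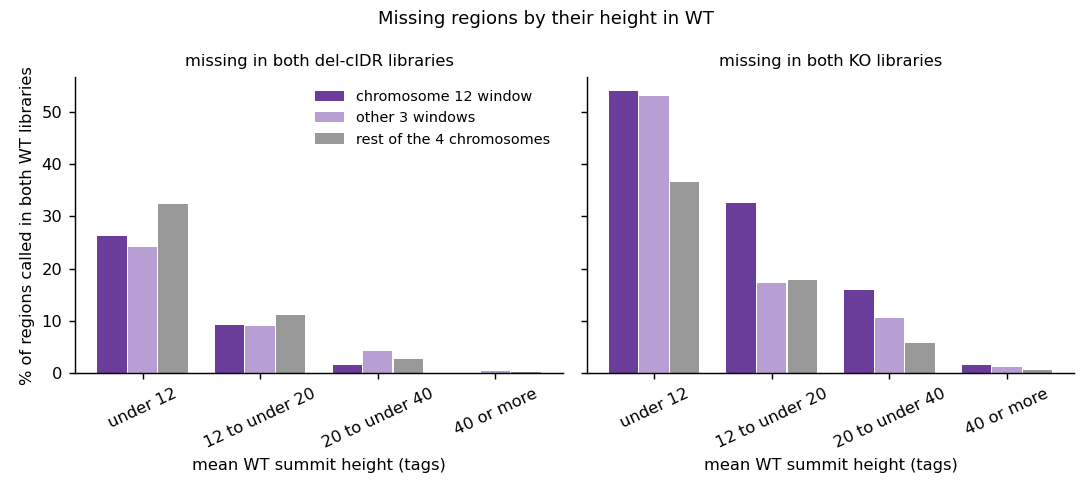
Regions called in both WT libraries that were missing in both del-cIDR libraries (left) or both KO libraries (right), as % (y axis), by the mean WT summit height in tags (x axis). Bars stand for the chromosome 12 window, the other 3 windows and the rest of the 4 chromosomes. At 20 to under 40 tags the KO bars are 15.9%, 10.6% and 5.71%.

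Heights were compared in the 760 window regions called in all 6 libraries. Regions that KO lacked, 198 of those in WT, are left out by this choice, so the heights show only falls that stayed above the calling limit. Heights were scaled within each library by the median of the 21517 regions called in all libraries on the rest of the 4 chromosomes. The median window region stood above that level by 0.26 and 0.22 log2 in del-cIDR, 0.04 and 0.00 in KO, and 0.21 and 0.22 in WT. On average this was 0.24 ± 0.03 in del-cIDR, 0.02 ± 0.03 in KO and 0.22 ± 0.01 in WT (SD, n = 2 each). Window regions were therefore as tall as the rest in KO and taller than the rest in the other genotypes. The KO difference from WT was -0.19 log2, and the del-cIDR difference of 0.02 was within the spread between libraries. As the median of each region's own difference, KO minus WT was -0.13 in the windows, against 0.07 on the rest of the 4 chromosomes.

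By the ratio of medians, the KO mean was below the WT mean in all 4 windows, and beyond the spread between libraries in 3 of them. Scaled to the rest of its own chromosome, the chromosome 4 window stood at 0.07 ± 0.03 log2 in del-cIDR, -0.16 ± 0.01 in KO and 0.16 ± 0.00 in WT (SD, n = 2 each). The chromosome 13 window stood at 0.53 ± 0.00 in del-cIDR, 0.27 ± 0.03 in KO and 0.48 ± 0.02 in WT. The chromosome 12 window stood at 0.30 ± 0.02, 0.02 ± 0.03 and 0.22 ± 0.01 in del-cIDR, KO and WT. The KO and WT libraries did not overlap in these 3 windows. The del-cIDR value on chromosome 12 is set against a lowered rest. Scaled to the rest of all 4 chromosomes, 26.5% of the regions there lay below WT without overlap in del-cIDR. On the rest of chromosomes 2, 4 and 13 it was 18.8% to 19.2%. The chromosome 2 window stood at 0.34 ± 0.08 in del-cIDR, 0.03 ± 0.04 in KO and 0.10 ± 0.08 in WT, and there KO and WT overlapped, with 0.00 and 0.05 in KO and 0.04 and 0.15 in WT. By this measure the difference in the chromosome 2 window was within the spread between libraries. The median of each region's own KO minus WT difference put the windows in another order, with -0.15 log2 on chromosome 2, -0.21 on chromosome 4, -0.03 on chromosome 12 and -0.07 on chromosome 13, against 0.07, 0.09, 0.09 and 0.07 on the rest of each. With it the KO libraries on chromosome 2 stood at -0.16 and -0.13 and the WT libraries at -0.06 and 0.06 from the WT mean, without overlap. The chromosome 12 difference thus depended on the measure, -0.20 or -0.03 log2.

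Single regions differed far more than the medians. KO lay below WT in both libraries, without overlap, in 304 of the 760 regions (40%, beside 22.2% of the 99146 regions with a call in every library, genome-wide), and above WT in 178 (23.4%, beside 38.4%). On the rest of the 4 chromosomes 23.7% lay below and 34.9% above. A difference of 1 log2 or more, a halving of relative height, was reached downward in 57 regions (7.50%, beside 1.95%) and upward in 4 (0.526%, beside 1.60%). On the rest of the 4 chromosomes it was reached downward in 2.06% and upward in 1.15%. The 57 regions were 6 of 97 on chromosome 2, 18 of 244 on chromosome 4, 24 of 257 on chromosome 12 and 9 of 162 on chromosome 13, or 6.19%, 7.38%, 9.34% and 5.56%. On the rest of each chromosome it was 1.80% to 2.35%.

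For del-cIDR against WT, 139 of the 760 regions lay lower without overlap (18.3%, beside 19.9%) and 235 higher (30.9%, beside 26.3%). A difference of 1 log2 or more was reached downward in 2 regions (0.263%, beside 0.284%) and upward in 0 (beside 0.137%). Without del-cIDR replicate 1 the count downward was 7. Between the mutants, 63 regions were higher in del-cIDR than in KO by 1 log2 or more (8.29%, beside 1.96%) and 5 were lower (0.658%, beside 2.19%). The 57 regions with a fall in KO had a median KO difference of -1.27 log2 and a median del-cIDR difference of -0.03 from the same WT libraries. Their del-cIDR difference was above 0 in 26 of 57. The 443 regions with such a fall on the rest of the 4 chromosomes had a median del-cIDR difference of -0.22, with 110 above 0. KO and del-cIDR are both set against the same 2 WT libraries, so their differences are not independent.

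**Figure D4:**
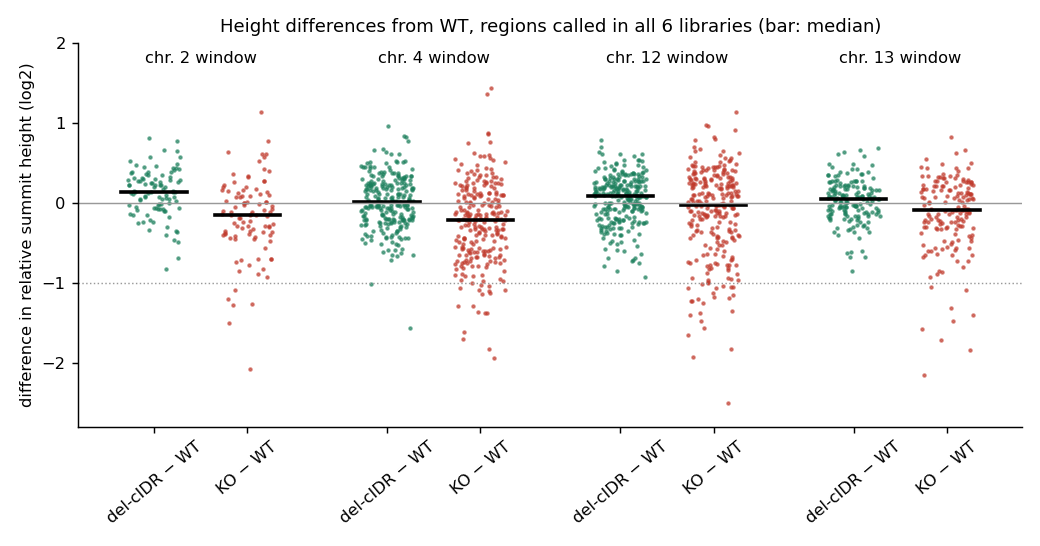
Difference of relative summit height from WT (y axis, log2, scaled to the rest of the 4 chromosomes) for each region called in all 6 libraries, by window, with del-cIDR minus WT left and KO minus WT right in each. Points are regions, black bars are medians, and the dotted line marks -1. Below the dotted line lie far more KO points than del-cIDR points: 57 and 2 of 760 counted without overlap between the libraries of the 2 genotypes.

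The falls were not limited to low regions. Among window regions of 40 to under 100 tags in WT, 27 of 242 fell by 1 log2 or more in KO (11.2%), against 2.96% on the rest of the 4 chromosomes. At 100 tags or more it was 7 of 131 (5.34%), against 0.791%. At 20 to under 40 tags it was 22 of 257 (8.56%), against 2.73%. Under 20 tags it was 1 of 130, where the calling limit leaves little room for a fall. The 57 regions had a median width of 547 bp, against 521 bp for all 760.

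The regions named next were picked after their values were seen, as those with the largest KO difference in a window. On chromosome 12 it was chr12:20856482-20857184, with 157 and 168 tags in del-cIDR, 21 and 17 in KO, and 107 and 145 in WT, a difference of -2.51 log2 in relative height. The neighbouring region chr12:20855516-20855799 had 137 and 150 tags in del-cIDR, 39 and 24 in KO, and 138 and 132 in WT (-1.93). Both lie in the bin from 20.5 to 21 Mb that also had the most missing regions of the window. On chromosome 13, chr13:66816361-66817048 had 29 tags in each del-cIDR library, 10 and 7 in KO, and 49 and 38 in WT (-2.15). On chromosome 2, chr2:176800754-176801406 had 44 and 39 tags in del-cIDR, 10 and 12 in KO, and 53 and 54 in WT (-2.08). In tags, del-cIDR also lay below WT without overlap in both of these, and above KO. On chromosome 4, chr4:146437496-146437763 had 56 and 65 tags in del-cIDR, 21 and 10 in KO, and 68 and 61 in WT (-1.94). A much taller one, chr4:146104424-146104878, had 249 and 266 tags in del-cIDR, 63 and 58 in KO, and 241 and 257 in WT (-1.83).

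**Figure D5:**
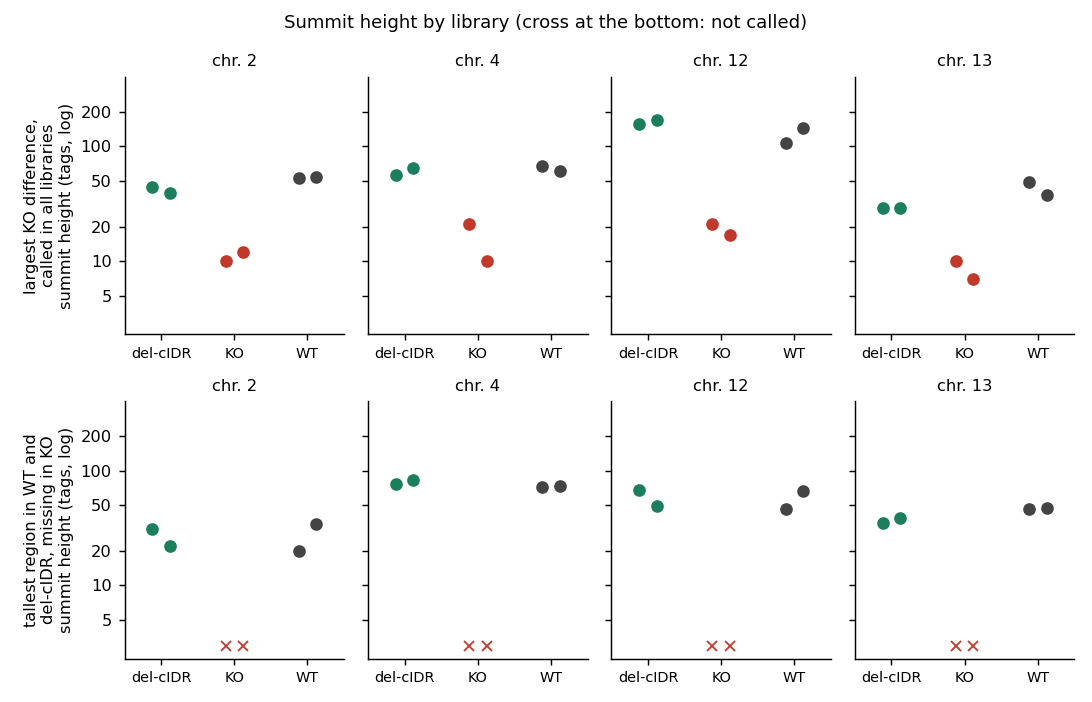
Summit height in tags (y axis, log scale) in each library for 1 region per window: above, the region with the largest KO difference from WT among those called in all libraries; below, the tallest region called in del-cIDR and WT and missing in KO. Points are libraries, and crosses at the bottom stand for no call. In each upper panel both KO points lie below all del-cIDR and WT points, such as 21 and 17 tags in KO on chromosome 12 against 107 and 145 in WT.

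Some of the tallest window regions had similar heights in all genotypes. On chromosome 13, chr13:66828660-66829242 had 536 and 534 tags in del-cIDR, 574 and 481 in KO, and 499 and 551 in WT. On chromosome 12, chr12:20361737-20363206 had 489 and 440 tags in del-cIDR, 516 and 417 in KO, and 400 and 483 in WT. In both the genotypes overlapped. The second one lies within 1 Mb of the region with the largest fall, so tall regions with and without a fall stood near each other. On chromosome 2, chr2:176771439-176772255 had 325 and 329 tags in del-cIDR, 219 and 179 in KO, and 269 and 318 in WT, with both KO libraries below the others.

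Height rose by 1 log2 or more in KO in 4 regions. The largest rise was at chr4:143004789-143005222, with 23 and 19 tags in del-cIDR, 41 and 30 in KO, and 15 in each WT library (1.44 log2). Next came chr4:144400870-144401136, with 18 and 16 tags in del-cIDR, 25 and 21 in KO, and 9 and 12 in WT (1.35). Of the others, chr12:24887220-24887931 had 21 and 23 tags in del-cIDR, 62 and 45 in KO, and 26 and 30 in WT (1.13). In chr2:174774356-174775025 there were 18 and 22 tags in del-cIDR, 29 and 31 in KO, and 14 and 18 in WT (1.13). In these 4 regions both KO libraries lay above both WT libraries. In del-cIDR the largest fall was chr4:147009459-147010040, with 16 and 11 tags in del-cIDR, 32 and 9 in KO, and 45 and 41 in WT (-1.56 for del-cIDR minus WT). The largest del-cIDR rise was chr4:147952724-147953352, with 95 and 92 tags in del-cIDR, 45 and 29 in KO, and 49 and 57 in WT (0.95). These 6 regions were likewise picked after their values were seen.

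Put together, 255 of the 1163 window regions called in both WT libraries were missing in KO or lower there by 1 log2 or more (21.9%), against 14.2% on the rest of the 4 chromosomes. By window the shares were 20.8% on chromosome 2, 18.1% on chromosome 4, 28.0% on chromosome 12 and 16.1% on chromosome 13, against 14.1%, 13.5%, 13.6% and 16.0% on the rest of each. A lower height could be scored only in regions called in all 6 libraries, 760 in the windows, while the shares are of all WT regions. By this combined share the chromosome 13 window lay at the level of its chromosome. Heights could be scored in 162 of its 217 WT regions and in 4340 of 6857 on the rest, so the 2 shares are not fully alike. These scored regions were also taller inside, with WT medians of 41.5 and 48 tags, against 30 and 34 on the rest of chromosome 13. The combined share does not allow for this, although low regions are missed more easily. Within the chromosome 12 window, 21 of the 43 WT regions between 20.5 and 21 Mb were in this class (48.8%). Over the 4 windows together, the local background under the peaks was close to that outside in each library. By window it differed. The chromosome 4 window lay above the rest of the 4 chromosomes in each library, with 1.92 and 2.02 tags in del-cIDR. The chromosome 2 and 12 windows lay below it in each library, with 1.49 and 1.38, and 1.46 and 1.51, in del-cIDR. The median background of all windows was 1.62 and 1.63 tags in del-cIDR, 1.64 and 1.32 in KO, and 1.41 and 1.62 in WT. On the rest of the 4 chromosomes it was 1.65 and 1.65, 1.70 and 1.36, and 1.43 and 1.71.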

How the data were processed

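One peak list per library was deposited by the authors, without pooling. The submitters' processing notes name build GRCm39 and the tools MACS2, BWA, fastp, Picard, SAMtools and featureCounts. Their versions and settings, read shifts and the treatment of reads with several matches are not stated there. In the lists deposited by the authors, the fold is the ratio of the summit pileup to the local background, and p and q values are given as −log10. In 99.9% of peaks or more, the deposited score is the −log10 q times 10, cut to a whole number. No list holds a q above 0.05.

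Summit heights in tags were solved from the deposited fold and −log10 p, and came out whole within 0.1 tags in 100% of 1016776 peaks. Spike-in peaks (sequence dm) were set aside. Peaks were merged at 1 bp, and a region's height is its tallest summit. Relative depth is the lowest background divided by the narrowest peak. Height solving, merging and calling patterns were tested on simulated data. Python 3.11.15, numpy 2.4.6, pandas 2.3.3 and scipy 1.17.1 were used. Tag heights carry counting error, and total reads are unknown.

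Groups came from the sample titles. Members, measures and alternatives were chosen with earlier results of these data known. Named regions were the 2 tallest per window and calling pattern, besides those said to be picked later. The planned gene-level parts (C2H2 genes, TRIM28 partners, markers) and sequence features were not analysed here, since no genome or gene table of GRCm39 was at hand. No test was made. Alternatives were a stricter q, equal list lengths, a stricter overlap, leaving out narrow regions or single libraries, and another scaling.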

Additional observations from a re-analysis of the deposited data

Results flagged for a closer look

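The spike-in peaks, which no comparison here uses, numbered 2082 in KO replicate 1 and 1977 in KO replicate 2. The WT libraries had 1679 and 1568, below KO, and the del-cIDR libraries 1199 and 1104, below WT. They lie on another sequence than the windows, and their part in the window differences was not tested.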

How the results depend on the processing

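No paired analysis was possible because the results come from no test and the replicate numbers only name libraries. KO minus WT kept its sign in window peak share and window height under every alternative run. With lists of equal length, 17 window regions were called in KO and not in WT (1686 on the rest of the 4 chromosomes). In del-cIDR and not in WT there were 32 (1169 on the rest), and in WT and not in del-cIDR 43 (1456). Of the WT regions, 13.5% were missing in KO inside the windows and 8.80% on the rest. For del-cIDR the shares were 4.27% and 5.25%. The peak share differences from WT were 0.0260 points for del-cIDR and -0.497 for KO. Without regions under 250 bp, 94 window regions had calls in WT and none in KO. This was 9.89% of the WT regions, against 7.72% on the rest. In WT and not in del-cIDR there were 28, or 2.95% against 5.32%. In del-cIDR and not in WT there were 5 (306 on the rest), and in del-cIDR and not in KO 67 (1354). The peak share differences were 0.114 (del-cIDR minus WT), -0.170 (KO minus WT) and 0.284 (del-cIDR minus KO). The small del-cIDR minus WT height difference changed sign in that setting (-0.0056 log2), with heights scaled to other autosomes (-0.0033) and without chromosome 12 (-0.0299). It also did so without del-cIDR replicate 1 (-0.0083) and without KO replicate 1 (-0.0033). The cause was not tested. With heights scaled to other autosomes, KO minus WT was -0.17 and del-cIDR minus KO 0.16 log2, and KO minus WT was also -0.17 without chromosome 12 from 52 Mb on. As medians of each region's own difference the heights were 0.0631 (del-cIDR minus WT), -0.13 (KO minus WT) and 0.13 (del-cIDR minus KO). Without chromosome 12, 95 window regions had calls in WT and none in KO. Over all heights together this was 13.4% of the WT regions, against 12.99% on the rest. In WT and not in del-cIDR there were 43, or 6.06% against 9.12%. In del-cIDR and not in WT there were 9 (420 on the rest), and in del-cIDR and not in KO 56 (1710). Lower in KO by 1 log2 or more were 32 (340 on the rest). The peak share differences were -0.16 (KO minus WT) and 0.29 (del-cIDR minus KO), and KO minus WT height -0.26.

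With 1 library left out at a time, a genotype is judged by its other library alone, so counts of calls can only grow: 198 to 383 regions called in WT and not in KO, 9 to 61 in KO and not in WT, 76 to 229 in WT and not in del-cIDR, 15 to 86 in del-cIDR and not in WT, 119 to 249 in del-cIDR and not in KO, and 17 to 88 in KO and not in del-cIDR. Counts of regions that differed in height by 1 log2 or more ranged over 55 to 68 lower in KO than in WT, 2 to 7 lower in del-cIDR than in WT, the highest without del-cIDR replicate 1, and 60 to 79 higher in del-cIDR than in KO. Height differences ranged over -0.0083 to 0.0410 (del-cIDR minus WT), -0.23 to -0.18 (KO minus WT) and 0.18 to 0.24 log2 (del-cIDR minus KO). The alternatives without chromosome 12 or its distal part, and the medians of own differences, were chosen after seeing the data. Depth sets the lowest height that can be called and differs between the libraries; its part in the missing calls was not tested.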

Other observations

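In tiles of 1 Mb with at least 20 regions called in both WT libraries, the share missing in KO had a median of 14.9% over the 17 tiles of the windows (6.82% to 34.0%), against 12.9% over the 447 tiles on the rest of the 4 chromosomes (0.00% to 33.3%). The 3 highest tiles of the windows lay on chromosome 12, from 18 to 19 Mb (18 of 53), from 23 to 24 Mb (10 of 31) and from 20 to 21 Mb (23 of 75). Outside the windows the highest tile was on chromosome 13 from 72 to 73 Mb, with 13 of 39. In the 2 later tiles of chromosome 12, del-cIDR lacked 0 of 31 and 4 of 75, and from 18 to 19 Mb it lacked 9 of 53.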
